A study of Danio rerio with 8 samples.

Results

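Sox genes encode transcription factors that bind DNA through an HMG box, and they are sorted into groups by the likeness of that box. Those described here are the SoxF genes sox7, sox17 and sox18, the SoxB1 genes sox2 and sox3, and the SoxC genes sox4a, sox11a and sox11b, 8 genes in all. Their rows were found by gene symbol in a table of read counts for 28272 genes, and 7 rows were found. The genes were chosen on results of the comparison given below, so their values in it are a description and carry no p-value. No row was matched to sox17, which is not analysed here. The symbol table names 2 rows SOX11 with no paralog letter, so they cannot be assigned to sox11a and sox11b and are given by their identifiers.

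SoxF factors are known from blood and lymph vessels, where sox7 and sox18 act together in zebrafish to set apart arteries and veins. SoxB1 factors keep neural progenitors undifferentiated, often bound to DNA beside a POU factor, and sox2 is also known from the supporting cells of the lateral line's sense organs. SoxC factors act in progenitors and in young neurons, and SOX4 is known from several tumours.

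RNA was sequenced from 8 libraries of adult zebrafish, 4 from cells labelled scale melanocytes and 4 from melanomas. The comparison asks how expression differs between these labelled cell types. All 8 share the strain on the label: the transgene Tg(mitfa:BRAFV600E), which drives mutant human BRAF from the mitfa promoter of pigment cells, p53(zdf1), EGFP under the mitfa promoter, and alb(b4), a lesion of a pigment gene. No library without the transgenes or the alleles was among them. The cells had been sorted for EGFP and for lack of pigment, and the labels do not tell if each library is from its own fish. Any p-value therefore measures the spread among the libraries, perhaps only a technical one. In the scale set 2 columns carry the number 3, and they are called its first and second column.

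Levels are CPM, read counts scaled by TMM to a common library size, as mean ± SD over n = 4 libraries per group. Values by library follow the order scale replicate 1, scale replicate 2, first and second column of scale replicate 3, then melanoma replicates 1, 2, 3 and 4. Changes are log2 fold changes ± SE, melanoma minus scale, from edgeR's quasi-likelihood fit, and the SE is approximate. CPM is not divided by gene length, so levels of different genes are not compared. "Called" means an adjusted p under 0.05 over all 26749 genes tested.

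The name scale libraries is used for the former set, because its markers go against its label. All 17 keratinocyte markers tested were called lower in melanoma, and their summed level ranged from 50723 to 107973 CPM in the scale libraries and from 32.9 to 216 CPM in melanoma. Of 14 melanocyte markers 11 were called higher in melanoma, and their sum ranged from 96.8 to 140 CPM against 1946 to 11937 CPM. Fibroblast and bone markers summed to between 545 and 8430 CPM against 22.8 to 71.1 CPM, and leukocyte markers to between 1776 and 4328 CPM against 330 to 3025 CPM. Most of the leukocyte sum was 1 gene, cd74a, at 2435 ± 1144 against 958 ± 789 CPM, which was not called. Of 10 leukocyte markers 2 were called higher (lcp1 and spi1), 1 lower (a row of mpeg1) and 7 not called (median log2 change 0.958). The higher calls numbered 0 with the replicate block or without scale replicate 1 or 2. By total counts alone 5 were called higher and 0 lower. Among all genes 21.7% were called higher and 15.2% lower. The keratinocyte, melanocyte and fibroblast sums separate the groups compared below, and their part in the Sox results was not tested. In such bulk samples fewer cells of a type and less RNA per cell cannot be told apart. Libraries held between 86888494 and 100270657 counts. Scale replicate 2 and the second column of scale replicate 3 held fewer genes at 10 or more counts (22836 and 22537) than the other 6 libraries (24832 to 26706).

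All 7 rows passed the filter on low counts. Of these, sox2 and sox4a were called higher in melanoma and sox7, sox18 and sox3 lower, while the 2 SOX11 rows were not called. Over all genes tested 21.7% were called higher and 15.2% lower, and the median log2 change was 0.05. In TMM-scaled CPM the 4 melanoma libraries lay above all scale libraries for 2 rows and below them for 4, and the groups overlapped for 1. Groups stood apart in this way for 21.7% and 15.2% of all genes. By total counts alone the groups also overlapped for sox18 and for row ENSDARG00000095743 of SOX11. Since the members were chosen from this contrast, their calls here and below are a description and no test, and nothing is read from their counts.

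**Figure D1:**
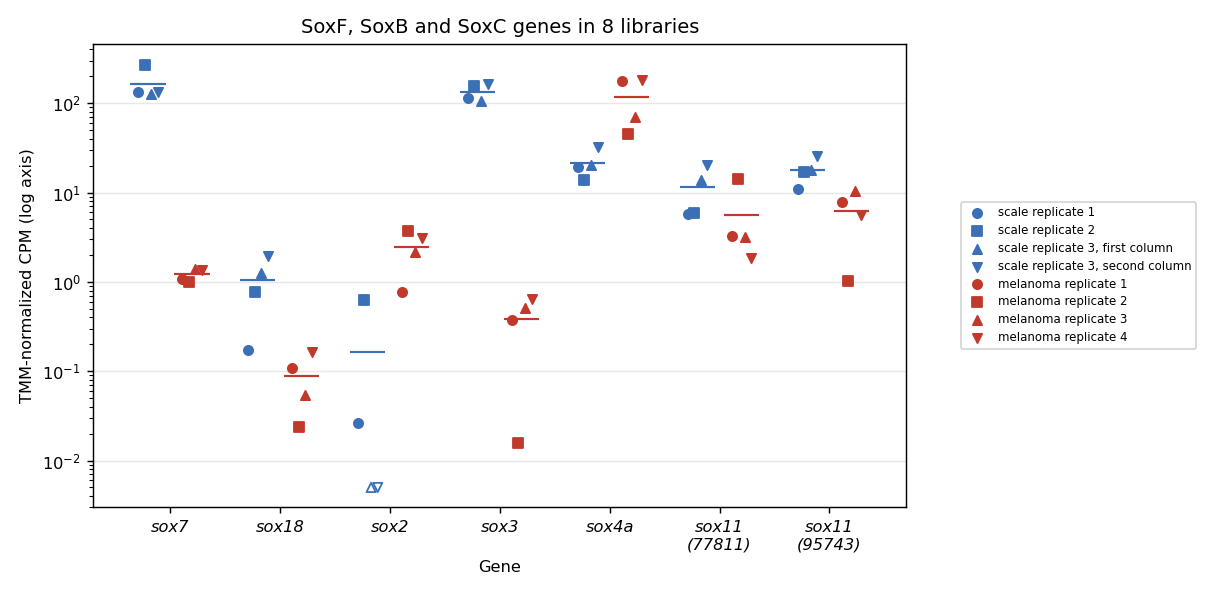
TMM-normalized CPM (log axis) of the 7 member rows in each of the 8 libraries, with blue markers for scale, red for melanoma and lines at the group means (n = 4). Open markers at 0.005 CPM stand for libraries with 0 counts; sox7 and sox3 lie above 100 CPM in all 4 scale libraries and below 2 CPM in all 4 melanoma libraries.

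Of the SoxF genes, sox7 (ENSDARG00000030125) was high in the scale libraries and near 1 CPM in melanoma. It stood at 133, 267, 128 and 134 CPM in the scale libraries. In melanoma it stood at 1.09, 1.001, 1.41 and 1.35 CPM. The groups were far apart and the melanoma libraries differed little among themselves, by a factor of 1.41 from lowest to highest. Group levels were 165 ± 67.6 against 1.21 ± 0.199 CPM, a log2 change of -7.09 ± 0.46. Scale replicate 2 held the high value, 267 CPM, beside 3 libraries within 128 to 134 CPM. By total counts alone that library was at 125 CPM and the others at 115, 112 and 71.9 CPM, so it was still the highest, by a smaller margin.

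The other SoxF gene measured, sox18 (ENSDARG00000058598), was low in every library. It was at 0.173, 0.778, 1.27 and 1.95 CPM in the scale libraries. In melanoma it was at 0.110, 0.0236, 0.0546 and 0.166 CPM. The groups did not overlap in TMM-scaled CPM, but scale replicate 1 lay just above the highest melanoma library. By total counts alone they overlapped, with scale replicate 1 at 0.150 CPM and melanoma replicates 1 and 4 at 0.184 and 0.263 CPM. These values rest on 245 counts over the scale libraries and 53 over melanoma. Levels were 1.04 ± 0.753 against 0.0885 ± 0.0627 CPM, a log2 change of -3.53 ± 0.92. The span of a lncRNA locus overlaps that of sox18 in the RefSeq annotation of GRCz12tu. Exons were not compared and the strand setting of the counting is not given, so whether they share reads was not tested.

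Endothelial cells are those in which SoxF factors are best known. Of 22 endothelial markers 3 were called higher, 4 lower and 15 not called, with a median log2 change of -0.56 against 0.05 for all genes, of which 21.7% were called higher and 15.2% lower. Their summed level was 28.1 to 74.8 CPM in scale libraries against 41.1 to 65.5 CPM in melanoma, so the groups overlapped. The single gene tek held 11.9, 36.8, 24.1 and 15.0 CPM of this sum in the melanoma libraries. The vascular cadherin gene cdh5 was at 10.1, 5.84, 6.31 and 1.24 CPM in scale libraries against 1.14, 0.567, 2.23 and 1.19 CPM in melanoma. Its log2 change was -2.20 ± 0.65 (edgeR adjusted p = 0.0189), and the second column of scale replicate 3 lay within the melanoma range. The angiopoietin receptor gene tek moved the other way, from 3.72 ± 1.61 to 21.9 ± 11.2 CPM (log2 change 2.56 ± 0.47, edgeR adjusted p = 0.00135). The apelin receptor gene aplnrb rose by 3.80 ± 0.83 (edgeR adjusted p = 0.00393). A row of the tight junction gene cldn5 (ENSDARG00000043716), the row meant by cldn5 below, fell by 3.33 ± 0.98 (edgeR adjusted p = 0.0195). The other row, ENSDARG00000014059, had the opposite sign and was not called (log2 change 3.437 ± 1.336, edgeR adjusted p = 0.0621), with melanoma replicate 1 at 5.55 CPM. No endothelial marker was at 0 in more than 1 library. The second column of scale replicate 3, the library with fewest genes, held 0 counts of erg, ecscr, lmo2 and cldn5 row ENSDARG00000014059. With 1 library left out the lower calls numbered between 0 and 6. There were 2 without scale replicate 1, without melanoma replicate 2, or with the second column of scale replicate 3 left out. Without melanoma replicate 4 there were 0, and cdh5 had an edgeR adjusted p of 0.0509 and cldn5 of 0.0592. With the replicate block 1 was called lower, and cdh5 (0.0509) and cldn5 (0.0787) were not. By total counts alone 0 were called lower (edgeR adjusted p = 0.229 for cdh5 and 0.0958 for cldn5).

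A list of genes reported as SoxF targets or partners in vessels held 19 tested rows, of which 2 were called higher, 5 lower and 12 not called (median log2 change -0.80). Beside this, 21.7% of all genes were called higher and 15.2% lower. The balance turned with the scaling: total counts alone gave 5 higher and 0 lower, and both upper quartile scaling and DESeq2 gave 9 lower. The ephrin ligand gene efnb2, an arterial marker, has 2 rows, with changes of opposite sign. Row ENSDARG00000020164 fell from 55.4 ± 16.5 to 20.2 ± 7.34 CPM (log2 change -1.46 ± 0.38, edgeR adjusted p = 0.0111). Its call was lost by total counts alone (log2 change -0.22, edgeR adjusted p = 0.638) and without the 2 scale libraries with fewest genes (-1.14, 0.0576). Row ENSDARG00000074050 was at 1.11, 0.311, 2.12 and 0 CPM against 6.29, 14.6, 54.6 and 20.3 CPM (log2 change 4.73 ± 1.1, edgeR adjusted p = 0.00536). Whether the 2 rows exchange reads was not tested. The change of this second row was 3.94 without melanoma replicate 3 and 5.49 without the first column of scale replicate 3. It was 3.80 without the 2 scale libraries with fewest genes. The receptor gene notch1 fell from 4.47 ± 0.894 to 1.098 ± 0.500 CPM (log2 change -2.03 ± 0.49, edgeR adjusted p = 0.00714), a call lost by total counts alone (0.227). The adhesion gene vcam1b was at 0.904 ± 0.478 against 5.34 ± 5.63 CPM (log2 change 2.55 ± 0.85, edgeR adjusted p = 0.0340), with melanoma replicate 1 at 13.3 CPM. It lost its call without any 1 scale library or without melanoma replicate 1 or 2 (edgeR adjusted p between 0.0513 and 0.149), and with the replicate block (0.135), which left 1 higher call. The lower calls numbered 3 without scale replicate 1, the first column of scale replicate 3 or melanoma replicate 3, and 2 without melanoma replicate 4.

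Of the SoxB1 genes, sox3 (ENSDARG00000053569) was high in the scale libraries and close to the floor in melanoma. It stood at 114, 154, 104 and 165 CPM in the scale libraries. In melanoma it stood at 0.373, 0.0158, 0.505 and 0.643 CPM. The groups were far apart, and the scale libraries differed among themselves by less than 2-fold. Melanoma replicate 2 held 2 counts. Levels were 134 ± 29.8 against 0.384 ± 0.269 CPM, a log2 change of -8.44 ± 0.88. A lncRNA overlaps sox3 in the same RefSeq annotation.

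The SoxB1 gene sox2 (ENSDARG00000070913) had the opposite direction at a low level. Its counts were 2, 28, 0 and 0 in the scale libraries and 126, 471, 314 and 448 in melanoma. In CPM these are 0.0267, 0.622, 0 and 0 against 0.770, 3.71, 2.14 and 3.10. The groups did not overlap, but scale replicate 2 lay close under melanoma replicate 1. Levels were 0.162 ± 0.307 against 2.43 ± 1.28 CPM, a log2 change of 3.96 ± 1.33. The size of this change rested on scale replicate 2: without it the change was 7.73, and with the second column of scale replicate 3 left out as well it was 7.41. With so few scale counts the fitted size depends on the prior count. The call was lost without scale replicate 1, either column of scale replicate 3, or melanoma replicate 2, 3 or 4, and the changes with 1 library left out ran from 3.34 to 7.73.

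The span of the long noncoding RNA gene sox2ot overlaps that of sox2 in the RefSeq annotation. The strand setting is not given, and whether the 2 genes share reads was not tested. The gene sox2ot was named after its values were seen. It was at 9.61, 4.20, 7.51 and 1.84 CPM in scale libraries against 8.28, 6.78, 13.3 and 11.6 CPM in melanoma, so the groups overlapped. Its log2 change of 0.78 ± 0.50 did not pass (edgeR adjusted p = 0.236), but was called higher by total counts alone (1.77, edgeR adjusted p = 0.0374). Both columns of scale replicate 3, where sox2 had 0 counts, held sox2ot reads (615 and 88 counts).

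The 3 other SoxB genes tested were called lower in melanoma, where 15.2% of all genes were called lower and 21.7% higher. The SoxB1 gene sox19a, which is known from the early embryo and the neural plate, was at 21.0, 40.2, 7.57 and 8.53 CPM in scale libraries against 0, 0.00788, 0.0137 and 0.0484 CPM in melanoma. Its log2 change was -10.02 ± 1.01 (edgeR adjusted p = 3.71e-05). Its paralog sox19b, known as a maternal factor of early development, was at 7.48, 17.4, 7.21 and 17.6 CPM against 0.0122, 0.142, 1.04 and 0.145 CPM. The log2 change was -5.21 ± 1.03 (edgeR adjusted p = 0.00214), and -6.95 without melanoma replicate 3, which held the high value. It was -4.56 without the 2 scale libraries with fewest genes. The SoxB2 gene sox14, of a group known mainly as repressors, was at 7.18, 10.8, 7.13 and 9.92 CPM against 0, 0, 0.0137 and 0.0346 CPM (log2 change -9.37 ± 0.91, edgeR adjusted p = 3.07e-05). Over the melanoma libraries sox14 held 7 counts and sox19a 10, so their fitted sizes depend on the prior count. Without melanoma replicate 4 they were -10.53 and -11.19. The SoxB2 gene sox21a was below the filter, with 51 counts over the scale libraries and 17 over melanoma.

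**Figure D2:**
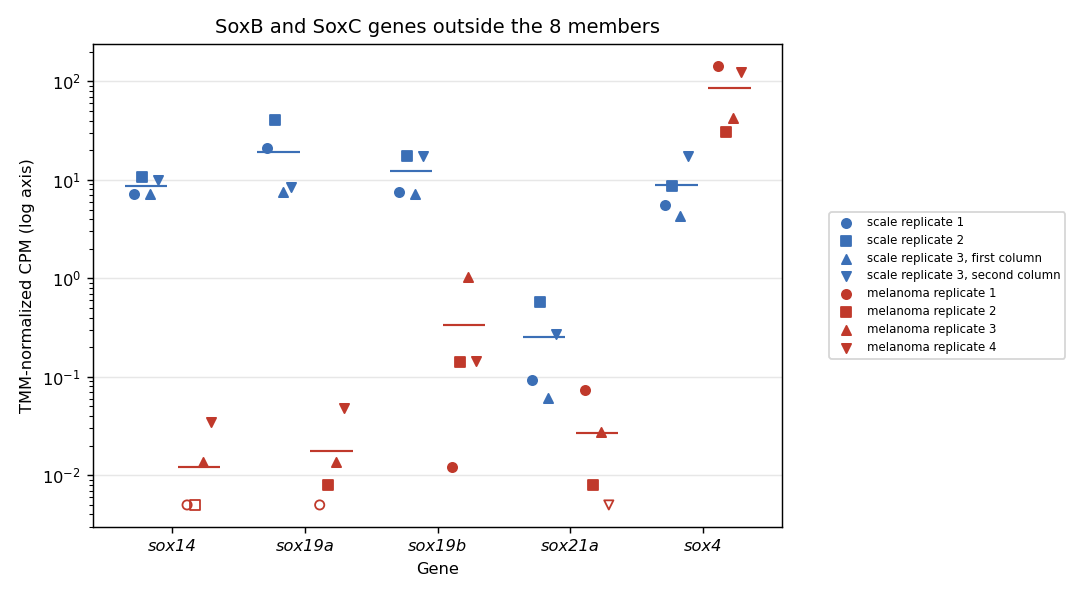
TMM-normalized CPM (log axis) of the SoxB and SoxC rows outside the members in each library, with blue for scale, red for melanoma and lines at the group means (n = 4). Open markers at 0.005 CPM stand for 0 counts; the scale libraries lie above the melanoma libraries for sox14, sox19a and sox19b, and below them for the SOX4 row.

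SoxB factors are known to act in neural progenitors. Of 15 neural progenitor genes 2 were called higher, 4 lower and 9 not called (median log2 change -1.31), where 21.7% and 15.2% of all genes were called. By total counts alone 1 was called lower, and with upper quartile scaling 1 was called higher. The Notch glycosyltransferase gene lfng was at 1.96, 2.24, 6.46 and 4.49 CPM in scale libraries against 78.7, 453, 23.7 and 82.0 CPM in melanoma. It rose by 5.39 ± 0.90 (edgeR adjusted p = 0.000719), and by 4.03 without melanoma replicate 2. The progenitor surface gene prom1 has 2 rows, with changes of opposite sign. Row ENSDARG00000034007 was not called (log2 change -1.715 ± 0.726, edgeR adjusted p = 0.0835). Row ENSDARG00000039966 rose by 1.80 ± 0.52 (edgeR adjusted p = 0.0177). That call was lost without scale replicate 2 (0.0525), the second column of scale replicate 3 (0.0534) or melanoma replicate 2 (0.0592), with the replicate block (0.0535) and with upper quartile scaling (0.0590). The glutamate transporter gene slc1a2, of glia, fell from 5.94 ± 1.01 to 0.345 ± 0.385 CPM (log2 change -4.10 ± 1.05, edgeR adjusted p = 0.00931; -4.83 without melanoma replicate 3). The list shares notch1 with the vessel list. Of 2 tested POU partners, pou2f1, a widely used factor, rose by 1.88 ± 0.51 (edgeR adjusted p = 0.0123) and the other was not called. Without the 2 scale libraries with fewest genes pou2f1 was not called (edgeR adjusted p = 0.0505, log2 change 1.26). The filter was applied anew in that fit, and 2 other POU rows were called lower, not both of which had passed it before. Below it before, pou3f1 and pou3f2 held 0 to 2 counts in the libraries left out, so nothing is read from these calls.

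Sense organ and nerve markers were looked at because sox2 is known there. Of 16 neuromast and hair cell markers 1 was called higher, 4 lower and 11 not called (median log2 change -1.72). For all genes the shares called were 21.7% higher and 15.2% lower. Lower calls numbered 1 by total counts alone (with 2 higher), 8 with upper quartile scaling, 9 with DESeq2 and 8 without the 2 scale libraries with fewest genes. Row ENSDARG00000030832 of otof was at 1.67 and 2.87 CPM in those libraries against 14.6 and 12.7 CPM in the other scale libraries. Not all genes of the list were lower there, and nothing is read from that last count. The calcium-binding protein gene s100t fell from 3.55 ± 2.55 to 0.00514 ± 0.00654 CPM (log2 change -9.12 ± 1.02, edgeR adjusted p = 6.55e-05; -9.95 without melanoma replicate 3). The parvalbumin gene pvalb8 fell by 3.38 ± 0.85 (edgeR adjusted p = 0.00867; log2 change -4.25 without melanoma replicate 1), a call lost by total counts alone (0.0669). The calcium-binding protein gene cabp2a was at 0.680, 0.0222, 0.183 and 0 CPM against 0.904, 1.58, 5.01 and 5.20 CPM (log2 change 3.79 ± 1.13, edgeR adjusted p = 0.0202). Its call was lost without the first column of scale replicate 3 (0.0535) or melanoma replicate 4 (0.0523), and it stood at 5.24 once scale replicate 1 was left out and at 2.81 without the 2 scale libraries with fewest genes. Without scale replicate 2 the lower calls numbered 7. Without scale replicate 1 the higher calls numbered 2. The hair cell factor gene pou4f3 was at 0 in 2 libraries and below the filter. The summed level of the list was 38.8 to 73.0 CPM in scale libraries against 23.4 to 131 CPM in melanoma. A large part of it was cdh23, which was not called, at 20.3 to 38.1 CPM in scale libraries and 12.2 to 120 CPM in melanoma.

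Of 8 Schwann and glial markers 3 were called lower, 0 higher and 5 not called (median log2 change -1.73), where 15.2% of all genes were called lower and 21.7% higher. Without the 2 scale libraries with fewest genes, and with the filter applied anew, 5 were called lower. The tested set may differ there. The row pou3f1, shared with the POU list, was below the filter before and held 0 and 2 counts in the libraries left out. It could enter this count, so nothing is read from it. Their sum was 321 to 793 CPM against 36.0 to 137 CPM, and in each scale library most of it was pmp22, at 255 to 720 CPM. The neuregulin receptor gene erbb3b fell from 13.7 ± 2.84 to 1.67 ± 0.918 CPM (log2 change -3.03 ± 0.48, edgeR adjusted p = 0.000556). The myelin gene pmp22, which other tissues also use, fell from 490.0 ± 199.6 to 29.6 ± 34.0 CPM (log2 change -4.05 ± 0.74, edgeR adjusted p = 0.00129; -5.28 without melanoma replicate 1).

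Of the SoxC genes, sox4a (ENSDARG00000096389) was higher in melanoma. It stood at 19.5, 13.9, 20.5 and 32.3 CPM in the scale libraries. In melanoma it stood at 178, 44.6, 69.6 and 181 CPM. The groups did not overlap, and the melanoma libraries fell into a pair at 178 and 181 CPM, replicates 1 and 4, and a pair at 44.6 and 69.6 CPM. Levels were 21.6 ± 7.71 against 118 ± 71.4 CPM, a log2 change of 2.46 ± 0.50. The row named SOX4 (ENSDARG00000004588), which is no member, was at 5.52, 8.73, 4.25 and 17.3 CPM against 143, 30.8, 42.2 and 124 CPM. Its log2 change was 3.25 ± 0.62 (edgeR adjusted p = 0.00174), with the same 2 melanoma libraries high. Without the 2 scale libraries with fewest genes it was 4.11. Paralogs of this kind may share reads, which was not tested.

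The 2 SOX11 rows were not called in either direction. Row ENSDARG00000077811 was at 5.80, 5.96, 13.8 and 20.1 CPM in the scale libraries. In melanoma it was at 3.24, 14.3, 3.19 and 1.84 CPM. Melanoma replicate 2 lay inside the scale range and the other 3 below it, and the log2 change was -1.01 ± 0.66. Without melanoma replicate 2 it was -2.04 and was called lower. By total counts alone the sign turned, to 0.085.

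Row ENSDARG00000095743 was at 10.9, 17.1, 17.7 and 25.8 CPM in the scale libraries. In melanoma it was at 7.87, 1.02, 10.3 and 5.56 CPM. The groups did not overlap, although melanoma replicate 3 came close to scale replicate 1. Levels were 17.9 ± 6.12 against 6.18 ± 3.94 CPM, a log2 change of -1.53 ± 0.58. It was called lower without scale replicate 1 or melanoma replicate 3. Melanoma replicate 2 was the highest of its group for the first SOX11 row and the lowest for the second. A lncRNA locus overlaps sox11b in RefSeq, and which row that is cannot be told here.

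Of 19 neuronal differentiation genes, where SoxC factors act, 2 were called higher, 4 lower and 13 not called (median log2 change -1.23). Again 21.7% of all genes were called higher and 15.2% lower. Lower calls numbered 0 by total counts alone, 7 with upper quartile scaling or DESeq2, and 11 without the 2 scale libraries with fewest genes. In those libraries elavl3, for example, was at 1.11 and 0 CPM, against 2.76 and 2.49 CPM in the other scale libraries. Not all genes of the list were lower there, and nothing is read from the count of 11. Row ENSDARG00000004169 of the microtubule regulator gene stmn1 was at 9.96, 12.3, 7.63 and 7.25 CPM in scale libraries. In melanoma it was at 14.9, 104, 458 and 187 CPM. It rose by 4.36 ± 0.81 (edgeR adjusted p = 0.00146), and by 3.47 without melanoma replicate 3. The other stmn1 row, ENSDARG00000033655, overlapped between the groups and was not called (log2 change 1.074 ± 1.179, edgeR adjusted p = 0.498). The tubulin gene tubb5 rose from 1.56 ± 0.314 to 13.1 ± 7.35 CPM (log2 change 3.06 ± 0.50, edgeR adjusted p = 0.000617). Both are also used by dividing cells. Row ENSDARG00000007220 of the neural adhesion gene ncam1 stood at 23.2, 7.87, 24.1 and 4.84 CPM in scale libraries. In melanoma it stood at 4.77, 1.27, 5.07 and 3.06 CPM, so the groups overlapped. It fell by 2.08 ± 0.60 (edgeR adjusted p = 0.0173), with a log2 change of -2.78 without the 2 scale libraries with fewest genes. The other ncam1 row, ENSDARG00000056181, was also called lower (log2 change -1.152 ± 0.371, edgeR adjusted p = 0.0292). Row ENSDARG00000070537 of stmn2 fell by 1.78 ± 0.53 (edgeR adjusted p = 0.0196), a call lost without melanoma replicate 3 (0.0565). The first ncam1 row and this stmn2 row lost their calls by total counts alone (edgeR adjusted p = 0.244 and 0.455). The other stmn2 row, ENSDARG00000033234, was not called (log2 change -1.515 ± 1.014, edgeR adjusted p = 0.261). The lower calls numbered 2 without scale replicate 1 or melanoma replicate 4, 1 without melanoma replicate 3, and 7 with the second column of scale replicate 3 left out.

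**Figure D3:**
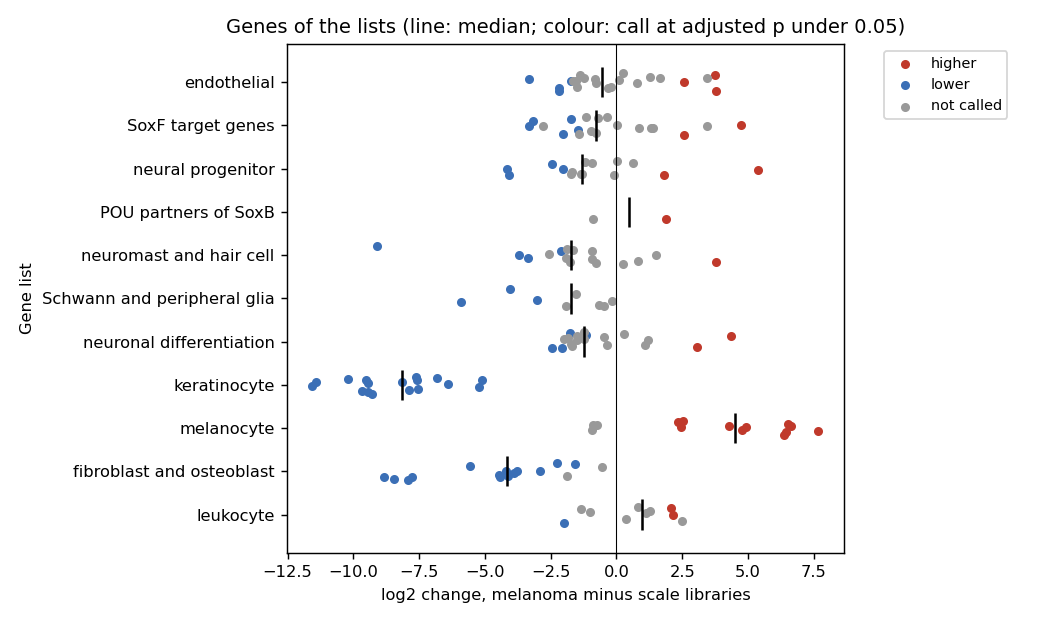
log2 change, melanoma minus scale, of each tested gene of 11 lists, with red and blue for genes called higher and lower (edgeR adjusted p under 0.05), grey for genes not called and a line at each list's median. Keratinocyte genes all lie left of 0 with a median of -8.16, and endothelial genes lie on both sides with a median of -0.56.

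The SoxD and SoxE genes are given for comparison. The SoxD genes sox5 and sox6, which lack a domain of their own for activation and act with SoxE factors, rose by 4.77 ± 0.39 and 2.78 ± 0.43 (edgeR adjusted p = 1.2e-05 and 0.000495), and sox13 fell by 3.20 ± 0.61 (0.00172). Among SoxE genes both sox9 rows fell, with log2 changes of -4.74 ± 0.83 for ENSDARG00000003293 and -6.08 ± 0.89 for ENSDARG00000043923 (edgeR adjusted p = 0.00097 and 0.000341). Without melanoma replicate 1 the former stood at -5.62, and without the 2 scale libraries with fewest genes the latter at -4.84. The neural crest factor sox10, with 0.640, 1.24, 0.549 and 0.461 CPM in the scale libraries, was between 194 and 434 CPM in melanoma. The row sox8 was at 0.480 ± 0.124 against 0.132 ± 0.129 CPM, a difference that did not pass (edgeR adjusted p = 0.126). In all, 4 of the 11 Sox rows tested outside the members were higher, 6 lower and 1 not called, against 21.7% and 15.2% of all genes. Shares of a family this small are given as a description.

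**Figure D4:**
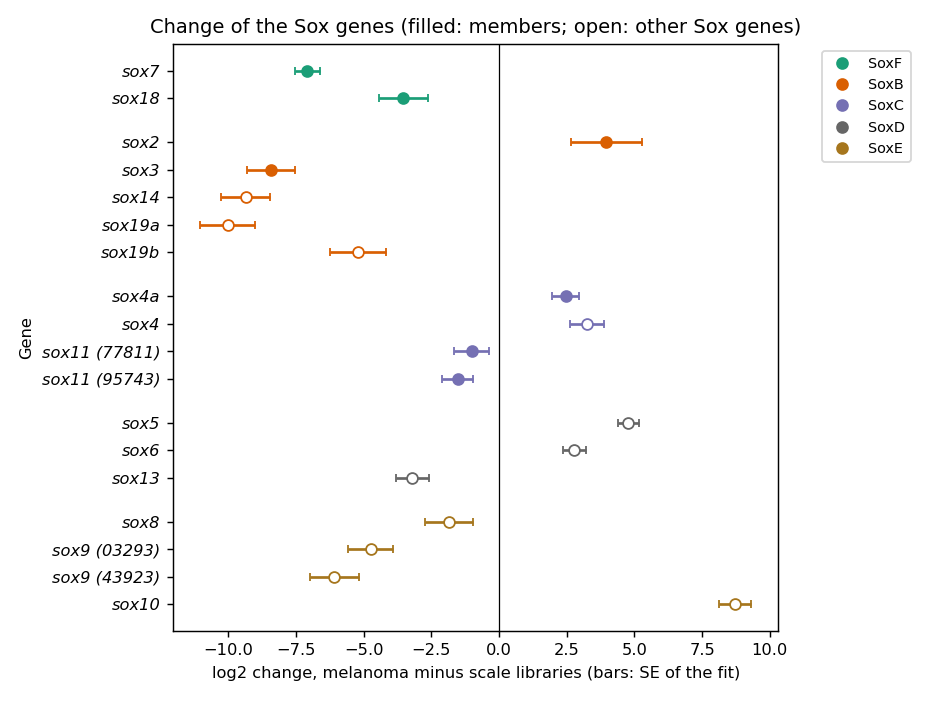
log2 change of each tested Sox row, melanoma minus scale, with bars for the SE of the fit, filled points for the members and open points for other Sox rows, coloured by group. Digits in brackets are the last of a row's identifier where 2 rows share a name; sox19a at -10.02 and sox10 at 8.71 mark the ends of the range.

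Among 5550 named genes with a mean of at least 10 CPM, those most like each member over the 8 libraries were sought by the root mean square difference of centred log2 CPM. The sterol reductase gene tm7sf2 (0.30) and the carrier gene slc25a55b (0.41) came nearest to sox7. The splicing factor gene esrp1 of epithelia (0.46) and the fatty acid elongase gene elovl3 (0.60) came nearest to sox3. In the scale libraries esrp1 was at 187 ± 40.3 CPM and in melanoma at 0.309 ± 0.210 CPM. The epithelial plakin gene eppk1 and the transporter gene slc16a5 (both 0.62) came nearest to sox18. The genes nearest to sox4a were spsb1 (0.40) and prrg1 (0.44). No gene came as near to sox2, where ogfr stood at 0.86 and the cell cycle gene cks1b at 1.12. The first SOX11 row was nearest to snrkb (0.39) and angptl4 (0.53), both of which held their highest melanoma value in replicate 2. The second was nearest to dgka (0.41) and acp5 (0.41), both lowest in that library. With groups this far apart the measure is set mostly by the step between them.

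**Figure D5:**
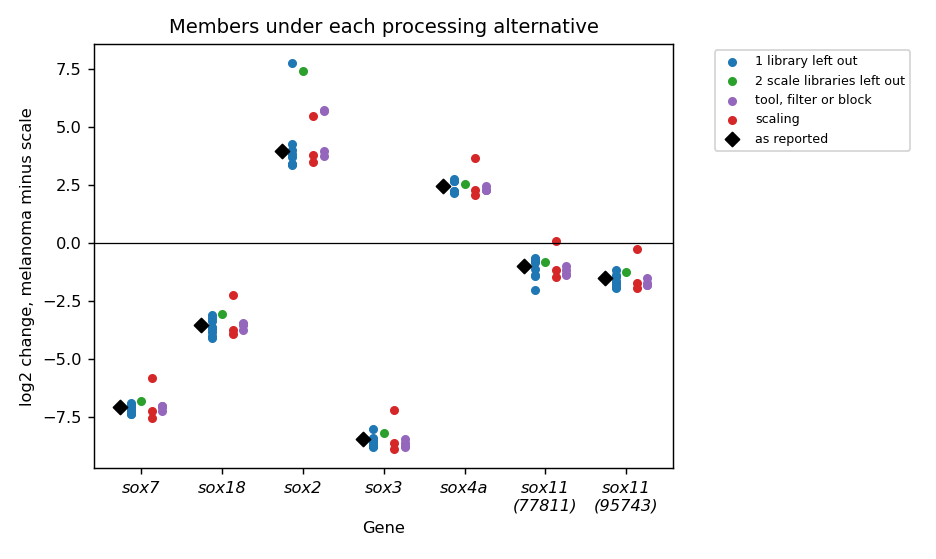
log2 change of each member row, melanoma minus scale, as reported (diamond) and under each of 16 other ways of processing (points coloured by kind). The points of sox2 spread from 3.34 to 7.73, and those of the first SOX11 row cross 0 under 1 scaling, at 0.085.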

How the data were processed

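Per the labels' protocols, Trizol was used for the RNA and an Illumina TruSeq kit for the libraries. The deposited values are whole-number read counts per gene made by the authors; the submitters' processing notes name STAR 2.3, HTSeq, DESeq2 and Zv9 without saying which step each served. Not given in the sources used here: the annotation, the strand setting and what was done with reads aligned to several places. The smallest row sum was 40 counts. Symbols were found for 19599 of 28272 identifiers, and 171 of 202 listed symbols had a row. No coordinates or sequences are given. Overlaps are of gene spans in RefSeq's GRCz12tu, which is not the Zv9 named in the processing notes.

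Genes were kept by filterByExpr and fitted by group alone with edgeR's quasi-likelihood method (edgeR 4.0.16, TMM scaling, R 4.3.3), with Benjamini-Hochberg adjustment over 26749 genes. The approximate SE is the absolute log2 change over the root of the F statistic. The fit was also run on simulated counts. Its pass mark was set at a fixed dispersion, not that of these data, and no outcome is given here. Members and lists were chosen with earlier results of these data known. Named genes are the members, the other Sox rows, up to 2 genes called in each direction per list by adjusted p, and the 2 genes most like each member (log2 CPM with a prior count of 2). Named after their values were seen, and not followed under the other settings, are cd74a, cdh23, elavl3, erg, ecscr, lmo2 and an otof row. So are the other rows of cldn5, prom1, stmn1, stmn2 and ncam1. At these depths counting error is small above 1 CPM. Results were also computed with DESeq2 1.42.0, upper quartile and RLE scaling, total counts alone, no filter, the replicate block, and leaving out each library or the 2 scale libraries with fewest genes. Where libraries were left out the filter was applied anew, so rows high only in the remaining libraries could enter those counts. Python 3.11.15, pandas 2.3.3 and matplotlib 3.10.9 made tables and figures.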

Additional observations from a re-analysis of the deposited data

Results flagged for a closer look

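In 4 of 38 groups of 4 libraries, over the members and the other Sox rows, 1 library stood apart from the other 3 by a gap above Dixon's critical share of the group's range. For normally distributed values about 5% of groups would be picked out by chance. Whether these CPM are so distributed was not tested. The level of sox7 was 267 CPM in scale replicate 2 (gap 0.958 of the range). That gap is in TMM-scaled CPM. By total counts alone the scale libraries were at 115, 125, 112 and 71.9 CPM, and scale replicate 2 was close to others. The level of sox2 was 0.622 CPM in scale replicate 2 (0.957). Row ENSDARG00000077811 of SOX11 was at 14.3 CPM in melanoma replicate 2 (0.888). The level of sox19b was 1.04 CPM in melanoma replicate 3 (0.870).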

How the results depend on the processing

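With total counts alone 10872 genes were called higher and 1778 lower, against 5799 and 4056, and the median log2 change over the table rose from 0.05 to 1.17; RLE gave -0.06 and upper quartile scaling -0.39. The share of calls that were higher was 85.9% with total counts alone, against 58.8% as reported, 53% with RLE and 41.6% with upper quartile scaling. The 10 genes with most counts held 31.88 to 41.61% of the counts in scale libraries and 5.833 to 6.511% in melanoma. Total counts alone makes no allowance for such a difference. Under total counts sox7 stood at -5.84, sox18 at -2.25 (its call lost), sox4a at 3.67, and the SOX11 rows at 0.085 and -0.29. With upper quartile scaling sox7 stood at -7.53. The change of sox2 was 7.41 without the 2 scale libraries with fewest genes. Of 112 member values, 104 moved by less than the pooled SD of log2 CPM between libraries of a group (not the SE of the change). The call of sox2 was also lost with upper quartile scaling and DESeq2; the second SOX11 row was called lower with these and RLE. All 176 values of the other tested Sox rows kept direction and side of the threshold. Of 720 values of other named genes, 61 lost a call, 4 gained one and 2 changed sign, snrkb (0.41) and acp5 (0.093) under total counts.

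Leaving out 1 library gave 3980 to 5822 genes higher and 3188 to 4653 lower, and changes of -7.39 to -6.91 for sox7, -4.10 to -3.12 for sox18, 3.34 to 7.73 for sox2, -8.79 to -8.04 for sox3, 2.14 to 2.74 for sox4a, -2.04 to -0.64 for the first SOX11 row, -1.93 to -1.17 for the second. No sign was seen that the replicate numbers pair the samples (correlations of deviations between -0.15 and 0.17), which cannot settle whether they were paired. The replicate block gave 5049 higher and 3596 lower, and 4864 and 3307 with the columns of replicate 3 exchanged, with sox2 at 5.67 and 5.71.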
